A study of Saccharomyces cerevisiae with 3 samples.

Results

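The aminoacyl-tRNA synthetases of budding yeast (Saccharomyces cerevisiae) and the cofactor ARC1 were followed as a set of 32 genes, taken by gene symbol from the platform's probe-to-gene table. All 32 were found, each by 1 probe set, among 5498 tested probe sets of 5449 genes. The set holds 18 genes for cytosolic enzymes, 13 for mitochondrial enzymes and ARC1. The cells came from 2 RNA samples labelled RPA12 delta and from 1 labelled wild type, each hybridised to its own single-colour Affymetrix array (a library below), and the labels do not say whether the 2 samples labelled RPA12 delta come from separate cultures. RPA12 is the gene of a small RNA polymerase I subunit, and that polymerase makes the large ribosomal RNAs. Per the labels, all cells share the haploid strain BY4741 of mating type MATa, with the alleles his3Δ 1 and leu2Δ 0 as well as met15Δ 0 and ura3Δ 0, and were grown untreated at 30 °C in synthetic medium to stationary phase, the stage at which growth has stopped. The growth text of the wild-type library names RPA12Δ cells, while its description and genotype say wild type, which was followed.

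An aminoacyl-tRNA synthetase joins an amino acid to its tRNA, and so supplies the charged tRNAs that ribosomes read. Yeast runs separate translation systems in the cytosol and in mitochondria, and both sets of enzymes are encoded in the nucleus. For many amino acids there is a separate gene for each compartment, while ALA1, GRS1, HTS1 and VAS1 each give rise to a cytosolic and a mitochondrial form. The enzymes fall into class I and class II, which differ in the fold of the catalytic domain.

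Values are log2 summaries of probe sets, and a difference is the mean over both libraries labelled RPA12 delta less the value of the wild-type library. The label of the deleted gene was not borne out by its own signal: RPA12 read 5.74 and 5.79 in the libraries labelled RPA12 delta and 3.60 in the wild-type library, so every direction below is between libraries as labelled. The place of its probes in the gene is not known here, and probes outside the deleted part would check nothing. MET17, the gene of the met15 allele that all cells are said to carry, read 9.43 and 9.36 in the libraries labelled RPA12 delta and 1.56 in the wild-type library. LYS2, which the labels do not list as altered, read 1.42 and 0.97 in the libraries labelled RPA12 delta and 6.08 in the wild-type library. The poly-A spike-in controls, added before labelling, had a median difference of -3.81 over 36 probe sets, and 27 hybridization controls one of -1.48. With 1 wild-type library, strain, culture and array handling cannot be told apart from the label. The background, the level under which 95% of 1746 probe sets of another yeast species lay, was 1.42 in each library labelled RPA12 delta and 1.84 in the wild-type library, and all 32 genes lay above it on every array.

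Genes of cytosolic synthetases were mostly higher in the libraries labelled RPA12 delta, and those of mitochondrial synthetases went both ways. The difference was positive in 14 of 18 cytosolic and 8 of 13 mitochondrial genes, beside 56.95% of all tested probe sets. A gene is said to have risen or fallen where limma's adjusted p was under 0.05 and the difference was at least 2-fold. Of 18 cytosolic genes 9 rose and none fell, where 23.8% of all tested probe sets rose and 10.2% fell. Among the 13 mitochondrial genes 2 rose and 3 fell. The median difference was 0.94 for the cytosolic genes and 0.33 for the mitochondrial genes, beside 0.19 for all tested probe sets, whose middle part lay between quartiles of -0.31 and 0.97. By 2-fold alone, which 24.4% of all tested probe sets passed upward and 11% downward, the counts in both compartments were the same. By limma alone, which called 50.4% higher and 29.7% lower, 13 cytosolic genes were higher and 3 lower. With limma and a 1.5-fold minimum, which 35% of all tested probe sets passed upward and 16.1% downward, 12 cytosolic genes were higher and none lower. In bulk RNA, fewer cells that express a gene and less RNA per cell cannot be told apart. These genes are not replicates of each other and no test was made of the medians.

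**Figure D1:**
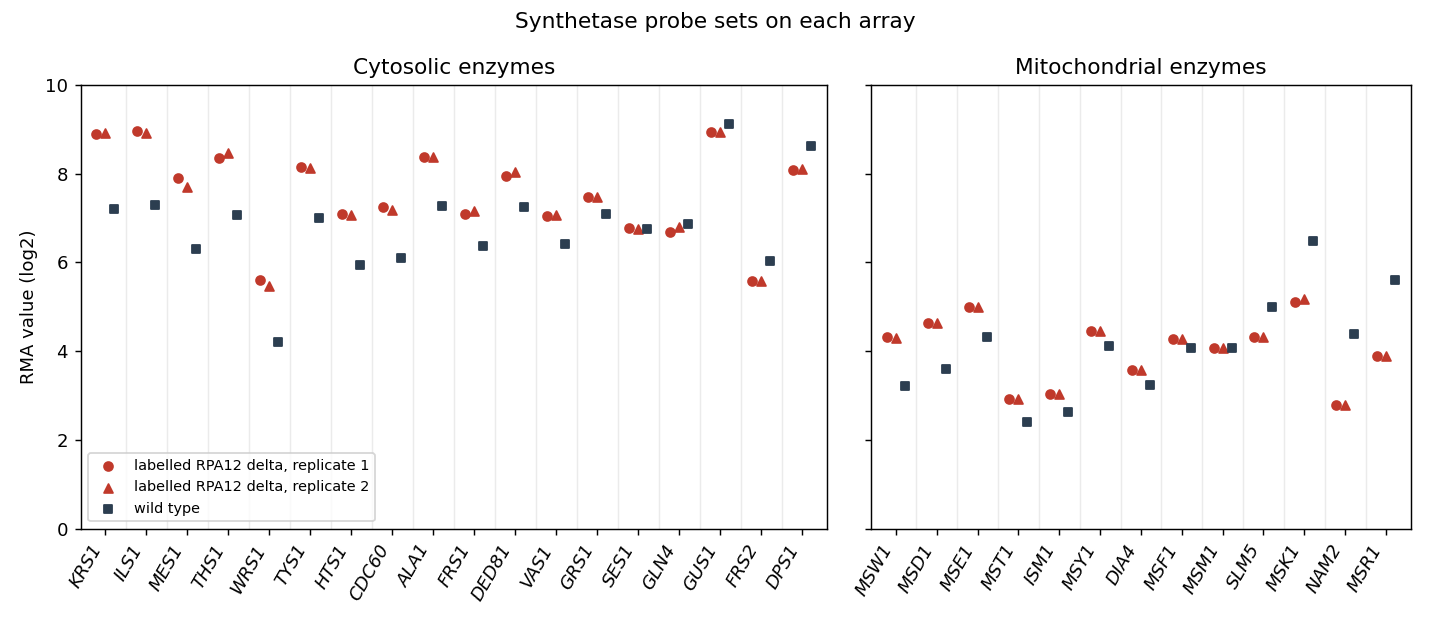
Log2 RMA value (vertical axis) of each synthetase gene (horizontal axis) on the 2 libraries labelled RPA12 delta (circle and triangle) and the wild-type library (square), cytosolic enzymes at left and mitochondrial enzymes at right, each ordered by difference. The 9 cytosolic genes from KRS1 to ALA1 and the mitochondrial genes MSW1 and MSD1 stand at least 2-fold above the wild-type library. MSK1, NAM2 and MSR1 stand at least 2-fold below it. Levels of different probe sets are not comparable.

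The largest difference of the cytosolic enzymes was in KRS1, which encodes lysyl-tRNA synthetase. It read 8.90 and 8.92 in the libraries labelled RPA12 delta and 7.21 in the wild-type library, a 3.26-fold rise (difference 1.71, limma adjusted p = 0.003731). ILS1, isoleucyl-tRNA synthetase, read 8.95 and 8.91 against 7.29 in the wild-type library, a 3.11-fold rise (limma adjusted p = 0.00736). In both genes the libraries labelled RPA12 delta lay close together and well above the wild-type library. MES1, methionyl-tRNA synthetase, read 7.89 and 7.70 against 6.31 in the wild-type library, a 2.81-fold rise (limma adjusted p = 0.04391). Its gap of 0.20 between the libraries labelled RPA12 delta was the largest of the 32 genes. MES1 did not pass with trended and robust moderation, where its difference stayed at 1.49.

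THS1 and WRS1 rose by similar amounts. THS1, threonyl-tRNA synthetase, read 8.36 and 8.46 in the libraries labelled RPA12 delta and 7.08 in the wild-type library, a 2.52-fold rise (limma adjusted p = 0.02479). WRS1, tryptophanyl-tRNA synthetase, read 5.61 and 5.47 against 4.21 in the wild-type library, a 2.51-fold rise (limma adjusted p = 0.03416). WRS1 fell short of 2-fold after quantile normalization again, at a difference of 0.88, and did not pass with trended and robust moderation.

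Another 4 cytosolic genes rose by little more than 2-fold. TYS1, tyrosyl-tRNA synthetase, read 8.16 and 8.12 in the libraries labelled RPA12 delta and 7.01 in the wild-type library, a 2.19-fold rise (limma adjusted p = 0.008995). HTS1, histidyl-tRNA synthetase of both compartments, read 7.09 and 7.07 against 5.95 in the wild-type library, a 2.19-fold rise (limma adjusted p = 0.003976). CDC60, leucyl-tRNA synthetase, read 7.26 and 7.18 against 6.10 in the wild-type library, a 2.18-fold rise (limma adjusted p = 0.02218). ALA1, the single alanyl-tRNA synthetase, read 8.38 in both libraries labelled RPA12 delta and 7.27 in the wild-type library, a 2.17-fold rise. These 4 lie so near the threshold that median centring took each under it, at differences from 0.87 to 0.88.

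The other 9 cytosolic genes stayed under 2-fold. FRS1 and FRS2 encode the β and α subunits of phenylalanyl-tRNA synthetase, a tetramer of both. FRS1 read 7.10 and 7.17 in the libraries labelled RPA12 delta and 6.37 in the wild-type library (difference 0.76), and FRS2 read 5.59 in both libraries labelled RPA12 delta and 6.04 in the wild-type library (difference -0.45). The subunit genes of this enzyme thus had differences of opposite sign, under each of the 3 scalings run. DED81, asparaginyl-tRNA synthetase, read 7.94 and 8.05 against 7.25 in the wild-type library (difference 0.74). VAS1, valyl-tRNA synthetase of both compartments, read 7.04 and 7.06 against 6.42 in the wild-type library (difference 0.64). GRS1, glycyl-tRNA synthetase of both compartments, read 7.48 in both libraries labelled RPA12 delta and 7.09 in the wild-type library (difference 0.39). In these 3 genes the wild-type library was the lowest.

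SES1, GLN4, GUS1 and DPS1 had differences from 0.02 down to -0.52, all under 2-fold. SES1, seryl-tRNA synthetase, read 6.77 and 6.76 in the libraries labelled RPA12 delta and 6.75 in the wild-type library, a difference of 0.02 that did not pass (limma adjusted p = 0.2847) and turned to -0.23 with median centring and -0.066 after quantile normalization again. GLN4, glutaminyl-tRNA synthetase, read 6.68 and 6.79 against 6.86 in the wild-type library, and its difference of -0.125 was close to the gap between its own replicates (limma adjusted p = 0.3627). GUS1, glutamyl-tRNA synthetase, read 8.93 in both libraries labelled RPA12 delta and 9.12 in the wild-type library. DPS1, aspartyl-tRNA synthetase, read 8.08 and 8.10 against 8.61 in the wild-type library, the lowest cytosolic difference at -0.52.

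Arc1 holds Mes1 and Gus1 in a complex of the cytosol and helps them bind tRNA. ARC1 read 7.15 and 7.18 in the libraries labelled RPA12 delta and 6.98 in the wild-type library, a difference of 0.19 that did not pass (limma adjusted p = 0.06407) and turned to -0.064 with median centring. Within this complex MES1 had a difference of 1.49, ARC1 of 0.19 and GUS1 of -0.19. Of the 4 genes taken here to serve both compartments, HTS1 and ALA1 rose, and all 4 had a positive difference. Their median was 0.88, beside 0.94 in the other 14 cytosolic genes. A positive difference was also seen in 56.95% of all tested probe sets. By class, 5 of 8 cytosolic class I genes and 4 of 10 class II genes rose, beside 23.8% of all tested probe sets, with medians of 1.13 and 0.75. With median centring 3 and 2 rose, beside 18.8%, and no difference between the classes was tested.

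Of the mitochondrial genes, MSR1, NAM2 and MSK1 fell. MSR1, mitochondrial arginyl-tRNA synthetase, read 3.90 in both libraries labelled RPA12 delta and 5.60 in the wild-type library, 3.25-fold lower. NAM2, mitochondrial leucyl-tRNA synthetase, which also takes part in the splicing of mitochondrial introns, read 2.79 in both libraries labelled RPA12 delta and 4.38 in the wild-type library, 3.01-fold lower. MSK1, mitochondrial lysyl-tRNA synthetase, which also helps to import a lysine tRNA into yeast mitochondria, read 5.10 and 5.19 against 6.48 in the wild-type library, 2.52-fold lower (limma adjusted p = 0.02143). Each of the 3 stayed at least 2-fold lower under every scaling. MSK1 also did so with either library labelled RPA12 delta left out, a step that cannot alter MSR1 or NAM2. For MSR1 and NAM2 the equal values in the libraries labelled RPA12 delta leave limma no spread, so its p carries no information there and only the size of the difference was used.

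MSW1 and MSD1 rose, by a little over 2-fold. MSW1, mitochondrial tryptophanyl-tRNA synthetase, read 4.32 and 4.30 in the libraries labelled RPA12 delta and 3.21 in the wild-type library, a 2.15-fold rise (limma adjusted p = 0.005767). MSD1, mitochondrial aspartyl-tRNA synthetase, read 4.64 in both libraries labelled RPA12 delta and 3.59 in the wild-type library, 2.07-fold higher. Neither held under another scaling: MSW1 differed by 0.85 with median centring and 0.32 after quantile normalization again, and MSD1 by 0.80 and 0.34.

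The other 8 mitochondrial genes stayed under 2-fold, and each gave the same value in both libraries labelled RPA12 delta. MSE1, for glutamate, read 4.99 in these libraries and 4.32 in the wild-type library. MST1, for threonine, read 2.92 in the libraries labelled RPA12 delta and 2.41 in the wild-type library. ISM1, for isoleucine, read 3.04 in the libraries labelled RPA12 delta and 2.63 in the wild-type library. These 3 were higher in the libraries labelled RPA12 delta, but MST1 and ISM1 turned to -0.10 and -0.29 after quantile normalization again. MSY1, for tyrosine, read 4.46 in the libraries labelled RPA12 delta and 4.12 in the wild-type library. DIA4, a probable mitochondrial seryl-tRNA synthetase, read 3.57 in the libraries labelled RPA12 delta and 3.24 in the wild-type library. MSF1, for phenylalanine, read 4.27 in the libraries labelled RPA12 delta and 4.08 in the wild-type library. The differences of MSY1, DIA4 and MSF1 were between 0.19 and 0.35 and turned negative after quantile normalization again, at -0.30, -0.52 and -0.48. MSM1, for methionine, read 4.08 on all 3 arrays. SLM5, for asparagine, read 4.32 in the libraries labelled RPA12 delta and 4.998 in the wild-type library, a difference of -0.68 that was past 2-fold after quantile normalization again, at -1.14.

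For 12 amino acids the set holds an enzyme gene for each compartment, so the 2 can be set side by side on the same arrays. The difference was larger for the cytosolic gene in 8 of 12 pairs and for the mitochondrial gene in 4, with a median gap, cytosolic minus mitochondrial, of 0.80 on the log2 scale. The 4 include phenylalanine, at a gap of only -0.03, where the mean of FRS1 (0.76) and FRS2 (-0.45) was set against MSF1 (0.19). The gap was widest for lysine, at 3.04, with KRS1 at 1.71 and MSK1 at -1.33, and next for leucine, at 2.71, with CDC60 at 1.12 and NAM2 at -1.59. In these pairs the cytosolic gene rose and the mitochondrial gene fell. Methionine (gap 1.49), asparagine (1.42) and isoleucine (1.23) followed, with a cytosolic difference above the mitochondrial one by more than 2-fold. Aspartate ran the other way, with DPS1 at -0.52 and MSD1 at 1.05 (gap -1.57), as did glutamate, with GUS1 at -0.19 and MSE1 at 0.67. For tryptophan both genes rose, WRS1 by 1.33 and MSW1 by 1.10. Median centring cannot alter a gap, and after quantile normalization again the cytosolic difference was the larger in 10 of 12 pairs. MSR1 has no cytosolic partner in the set. YDR341C, the gene of the cytosolic arginyl-tRNA synthetase, read 8.66 in both libraries labelled RPA12 delta and 7.37 in the wild-type library, a difference of 1.29, against -1.70 for MSR1.

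**Figure D2:**
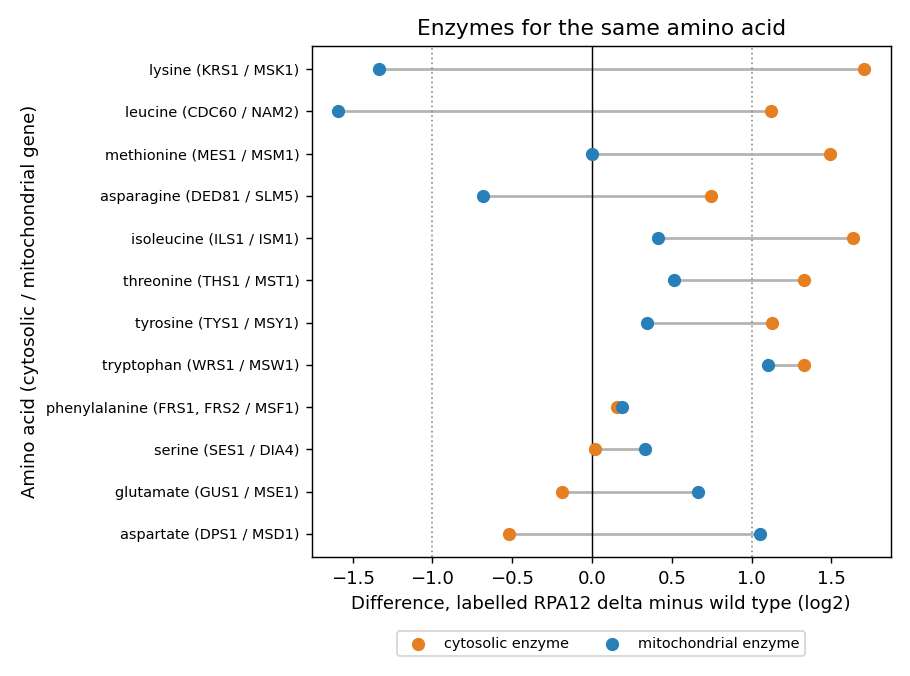
Difference, labelled RPA12 delta minus wild type (log2, horizontal axis), of the cytosolic and the mitochondrial enzyme gene of 12 amino acids (vertical axis), ordered by the gap; dotted lines mark 2-fold and the value for FRS1 and FRS2 is their mean. Lysine and leucine span both dotted lines. The 4 lowest rows run the other way, aspartate the widest of them and phenylalanine barely, at a gap of -0.03.

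The count of rises in both compartments depended on how the arrays were scaled to each other. Median centring moved the median difference of all tested probe sets by -0.25 and quantile normalization again by -0.15. With median centring 5 cytosolic genes rose (KRS1, ILS1, MES1, THS1 and WRS1), against 18.8% of all tested probe sets, and 8 rose after quantile normalization again, against 18.3%. No cytosolic gene fell under either. No mitochondrial gene rose under either scaling, while 3 fell with median centring, against 14.8% of all tested probe sets, and 4 after quantile normalization again, against 14.1%. Quantile normalization again moved the mitochondrial genes by a median of -0.64 and the cytosolic genes by a median of -0.073, so the median mitochondrial difference was -0.48 there and 0.081 with median centring. The cytosolic median stayed above 0, at 0.80 and 0.69 in the same order. Mitochondrial probe sets also read lower, from 2.41 to 6.48 in the wild-type library, against 4.21 to 9.12 for cytosolic ones. After quantile normalization again WRS1, the lowest cytosolic reading, went from 1.33 to 0.88, and MSK1, the highest mitochondrial one, from -1.33 to -1.52. Compartment and signal level were not separated by any test.

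**Figure D3:**
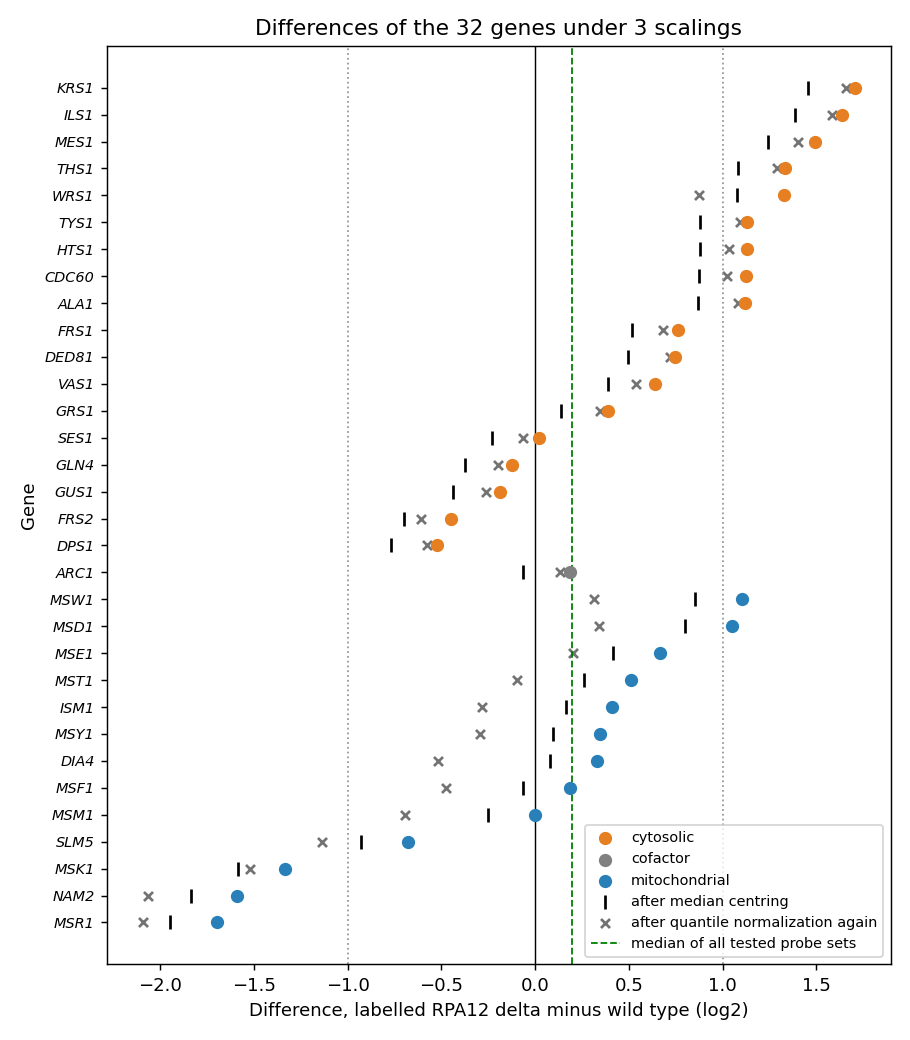
Difference, labelled RPA12 delta minus wild type (log2, horizontal axis), of each of the 32 genes (vertical axis) as deposited (dots), after median centring (bars) and after quantile normalization again (crosses), with dotted lines at 2-fold and a dashed line at the median of all tested probe sets, 0.19. Mitochondrial genes, whose probe sets mostly read lower, move farther to the left after quantile normalization again than most cytosolic genes do, and 10 of 13 lie below 0 there.

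Other genes of tRNA charging and maturation were counted in the same fit, from 8 lists of 85 genes, of which 82 had a probe set. Of these 27 rose and 2 fell, and 34% of all tested probe sets changed in either direction. Their median difference was 0.68. Among the other synthetase genes 2 of 4 measured rose, YDR341C 2.45-fold (limma adjusted p = 0.0008202) and YHR020W, the prolyl enzyme, which read 8.65 and 8.59 in the libraries labelled RPA12 delta and 6.999 in the wild-type library, 3.08-fold (limma adjusted p = 0.01179). GRS2, a paralog of GRS1, had a difference of 0.84 and AIM10, a relative of prolyl-tRNA synthetases, one of 0.10, both named outside the rule for naming genes because the list is short. None of 4 mitochondrial partners of charging passed, namely PET112, HER2 and GTF1, which encode the amidotransferase that makes glutaminyl-tRNA in mitochondria, and FMT1, the formyltransferase of the initiator tRNA, which was not above background in any library. Nor did any of the 4 genes of the branch that senses uncharged tRNA, in which Gcn2 is the kinase and Gcn4 the activator of amino acid synthesis genes. Named outside the same rule, GCN4 read 9.51 in both libraries labelled RPA12 delta and 9.67 in the wild-type library, GCN2 had a difference of -0.75 (limma adjusted p = 0.05943), GCN20 of 0.77 (limma adjusted p = 0.02284) and GCN1 of 0.22, with a median of 0.034 over the 4 genes.

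Genes of tRNA modification held the largest differences of these lists. Across 3 modification lists 19 of 47 measured genes rose, none fell, and the median difference was 0.83, where 23.8% of all tested probe sets rose and 10.2% fell. PUS1, a pseudouridine synthase of many tRNA positions, read 6.76 and 6.65 in the libraries labelled RPA12 delta and 2.25 in the wild-type library, a 21.8-fold rise (limma adjusted p = 0.007682). KTI12, a factor of the Elongator complex, which modifies wobble uridines, read 6.18 and 6.17 against 2.04 in the wild-type library, a 17.6-fold rise (limma adjusted p = 0.001127). The wild-type values of both lie little above the background level there, 1.84. Methyltransferase genes rose in 8 of 17 cases, led by TRM3 (8.05-fold), TRM1 (7.49-fold), TRM11 (7.19-fold) and GCD10 (4.72-fold), the last a subunit of the enzyme that methylates adenosine in initiator tRNA. GCD10 did not pass with trended and robust moderation. Of 13 measured genes of pseudouridine, dihydrouridine and deamination 7 rose, among them DUS3 (4.85-fold), DEG1 (4.72-fold) and DUS1 (4.70-fold). The wild-type values of DUS3 (1.99) and DEG1 (2.23) also lie little above background, and DUS3 read 4.27 in both libraries labelled RPA12 delta. Of 17 measured genes of the wobble uridine and anticodon loop 4 rose, namely KTI12, NCS6 (4.51-fold), IKI1 (2.59-fold) and NCS2 (2.44-fold), a share near the 23.8% of all tested probe sets that rose. NCS2 was just under 2-fold after quantile normalization again, at 0.99.

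Of 19 end-processing and splicing genes 5 rose and 1 fell, near the 23.8% and 10.2% of all tested probe sets that did so. TRL1, the tRNA ligase, read 3.84 in both libraries labelled RPA12 delta while its 1.60 in the wild-type library is under background, so it was at least 3.98-fold higher. POP3 and POP8, subunits of RNase P, which trims the front end of tRNA precursors, rose 3.95-fold and 2.95-fold. The wild-type value of POP3 lies little above the background level there, 1.84. POP3 read 4.08 in both libraries labelled RPA12 delta, a value held by 27 and 28 tested probe sets in these libraries. SEN34, a subunit of the tRNA splicing endonuclease, fell, at 1.75 and 1.77 in the libraries labelled RPA12 delta and 3.44 in the wild-type library. The 2 lower values lie little above the background level of those libraries, 1.42. Of 4 export genes, UTP8 had a difference of 1.16 that dropped under 2-fold with both other scalings, and MSN5, an exportin of tRNA and proteins, fell 2.32-fold. MSN5 read 6.08 and 6.01 in the libraries labelled RPA12 delta and 7.26 in the wild-type library.

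**Figure D4:**
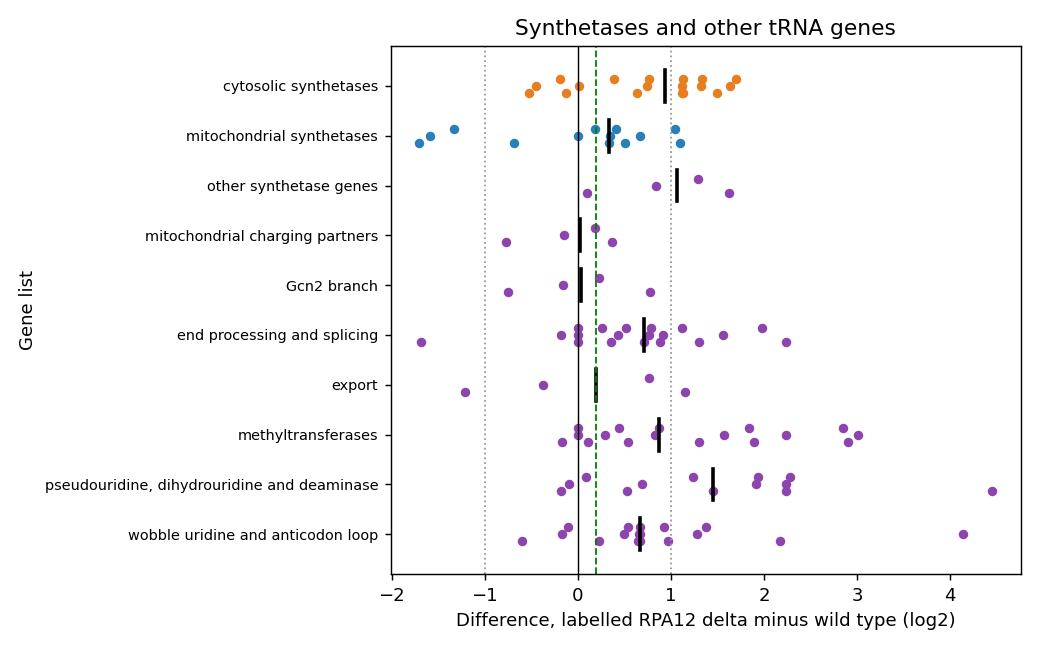
Difference, labelled RPA12 delta minus wild type (log2, horizontal axis), of each measured gene (dots) in the cytosolic and mitochondrial synthetase groups and 8 other tRNA gene lists (vertical axis), with black bars at list medians, dotted lines at 2-fold and a dashed line at 0.19, the median of all tested probe sets. PUS1 and KTI12 lie above 4, and the pseudouridine, dihydrouridine and deaminase list has the highest median, 1.45.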

How the data were processed

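Total RNA (6 µg per array, per the labels' protocols) was labelled as biotinylated cRNA. The authors deposited log2 RMA values, made with Affymetrix Expression Console and RMA per the submitters' processing notes; neither versions nor which arrays were run together is stated in the sources used here. RMA puts arrays of a run on one distribution, so a shift of most transcripts would be hidden between arrays run together. As deposited, the tested probe sets did not share one distribution across the arrays. Their medians were 5.74 and 5.74 in the libraries labelled RPA12 delta and 5.49 in the wild-type library. Whether the wild-type array was scaled together with the others was not tested. The values were used as they stand. Of 10928 probe sets, 5498 had a single S. cerevisiae gene symbol in the platform annotation, matched through gene identifiers to the RefSeq gene table of assembly R64, and entered the test; 12 symbols were updated. The 1746 probe sets of another yeast species gave the background. No gene had more than 1 probe set among the 32.

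Differences were tested with limma 3.58.1 in R 4.3.3 (lmFit, eBayes, two-sided, Benjamini-Hochberg over all 5498), with 1 residual degree of freedom, so the lone wild-type library is assumed to vary like the others and p-values measure only the spread between 2 arrays, which may be technical. These 2 arrays gave identical values for 2431 tested probe sets (44.2%), which makes limma's p too small there. The ties also enter the prior variance that limma shares over all probe sets, so the p-values of untied genes depend on them too. A minimum of 2-fold was therefore required as well, and the number of arrays limits the precision. The fit was tested on simulated data, in which the wild-type array varied only as the libraries labelled RPA12 delta vary from each other. The standard deviation of the difference between these libraries was 0.081, against 1.29 and 1.28 for their differences from the wild-type library. The simulation therefore cannot show how often calls are wrong where a lone wild-type array varies more. The genes, lists and rules were chosen with earlier results of these data known. All 32 genes are named; of other lists, up to 4 genes that rose or fell, by size of difference. Alternatives were 2 other scalings, each library labelled RPA12 delta left out, other call rules, moderation, a dim filter, probe-set averaging and class membership. Promoter and protein sequences were not analysed here.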

Additional observations from a re-analysis of the deposited data

How the results depend on the processing

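The 3 falls of mitochondrial genes (MSR1, NAM2, MSK1), and the rises of KRS1, ILS1 and THS1, passed under each alternative run, by 2-fold alone where a library was left out. Leaving out a library cannot alter MSR1 or NAM2, whose values in the libraries labelled RPA12 delta are equal. Median centring left 5 cytosolic rises of 9 and no mitochondrial rise, and quantile normalization again left no mitochondrial rise (0). With limma's adjusted p alone, 3 cytosolic genes fell, 8 mitochondrial genes rose and 72 of the 82 other tRNA genes passed, beside 80.2% of all tested probe sets. With a 1.5-fold minimum 48 passed, beside 51.1%, and with the 2-fold minimum 29, beside 34%. The median cytosolic difference (0.94) was 0.80 after quantile normalization again, 0.69 with median centring and 0.76 with ARC1 added to the class. The mitochondrial median (0.33) reversed to -0.48 after quantile normalization again and was 0.081 with median centring. The cytosolic minus mitochondrial median (0.61) was 1.28 after quantile normalization again and 0.43 with ARC1 added, and the median gap within amino acids (0.80) was 1.39 after quantile normalization again; the cause was not tested. Leaving out either library labelled RPA12 delta, which allows no test, gave cytosolic medians from 0.92 to 0.94, a mitochondrial median of 0.33, compartment gaps from 0.59 to 0.61, and 9 cytosolic rises, with no change of sign. The mitochondrial median could hardly move there, because 11 of 13 mitochondrial genes read the same in both libraries labelled RPA12 delta. Single genes reversed as follows: SES1 (-0.23), ARC1 (-0.064) and MSF1 (-0.064) with median centring, and SES1 (-0.066), MSF1 (-0.48), MST1 (-0.10), MSY1 (-0.30), ISM1 (-0.29) and DIA4 (-0.52) after quantile normalization again. An alternative chosen after seeing the data, limma with the prior variance taken from probe sets without ties, made the same 14 calls among the 32 genes. It gave each of the 32 genes the same standard error, 0.0944, so small that the 2-fold minimum alone set these calls. The calls could thus not have come out otherwise. No paired analysis was possible because the wild-type group has 1 array, whose label carries no replicate number.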

Other observations

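Many deposited values recur across genes. The first and second library labelled RPA12 delta held 2250 and 2229 distinct values over 5498 tested probe sets, and the wild-type library held 4384. A value shared with another tested probe set stood at 65.7% and 65.9% of probe sets in the libraries labelled RPA12 delta and at 23.7% in the wild-type library. Among the 32 genes, 17 and 18 shared their value with another probe set in the libraries labelled RPA12 delta, and 7 did so in the wild-type library. The value of MSM1, 4.08 on all 3 arrays, was also that of 27 and 28 probe sets in the libraries labelled RPA12 delta and 48 in the wild-type library, MSM1 included. Equal values on the 2 libraries labelled RPA12 delta were found for 11 of 13 mitochondrial synthetase genes and 4 of 18 cytosolic ones, so the size of a difference, and not its p, carries the comparison for most mitochondrial genes. Of the 2431 tested probe sets tied between these arrays, 434 also had the same value in the wild-type library.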
